A study of Homo sapiens with 24 samples.

Results

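The tumour suppressor p53 is a transcription factor that is held at a low level by its inhibitors MDM2 and MDM4 and that activates genes of cell cycle arrest, DNA repair, metabolism and cell death when cells are stressed. MDM2 is itself a p53 target, so that p53 and its inhibitor form a feedback loop. The p53 pathway is one of the pathways known to hold senescent fibroblasts in arrest, and oncogenic RAS is a known trigger of that arrest.

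To ask how genes of this pathway behave when RAS and a hairpin against the chromatin protein HMGA1 are combined, the RNA-seq counts of 9 genes were followed. They are the inhibitors MDM2 and MDM4 and the p53 targets GDF15, BTG2, SESN1, SESN2, TP53I3, FAS and ZMAT3, chosen by name and found by Entrez identifier among the 25702 genes counted. All 9 passed the filter on low counts, as did 13356 genes in all. The level of p53 protein, its modification and its own transcript were not analysed here.

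The 24 samples are IMR90 cells, a line of human diploid lung fibroblasts, at passage 23 to 28. All carry ER:HRAS(G12V), a fusion of oncogenic RAS with an oestrogen receptor domain that 4-hydroxytamoxifen (4OHT) switches on. There were 4 groups of 6 biological replicates. Growing cells had the empty MSCV vector and no 4OHT, and shHMGA1 cells had a miR30-based hairpin named for HMGA1 in MSCV and no 4OHT. RIS cells (RAS-induced senescence) had the empty vector and 6 days of 4OHT, and RIS+shHMGA1 cells had the hairpin and 6 days of 4OHT. The growing controls were not given 4OHT, so RAS and the drug cannot be told apart, and 1 hairpin was used.

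Total counts ranged from 8698070 to 23103424 per sample. HMGA1 lay between 639 and 861 CPM (counts scaled to TMM-normalised library sizes) in the 12 samples with empty vector and between 54.4 and 262 CPM in the 12 with the hairpin. In shHMGA1 cells it was 98.7 to 143 CPM in replicates 1 to 4, and 58.1 and 54.4 CPM in replicates 5 and 6. In RIS+shHMGA1 cells it was 197 to 262 CPM in replicates 1 to 4, and 60.0 and 75.1 CPM in replicates 5 and 6. The part of this difference in the results was not tested. The fibroblast genes COL1A1, COL1A2, VIM, PDGFRB, THY1 and DCN were detected in every sample, while the epithelial, endothelial and immune markers EPCAM, CDH1, KRT5, PECAM1, CDH5, VWF, PTPRC and CD3E did not exceed 1.27 CPM. Of the 10 markers of these other types, KRT18 (26.4 to 49.0 CPM) and CD68 (40.2 to 105 CPM) were detected in every sample, and their part in the results was not tested. The summed level of the 6 fibroblast genes was 12936 to 18580 CPM in shHMGA1 cells and 4290 to 5650 CPM in RIS+shHMGA1 cells, and its part in the results was not tested. In bulk RNA, fewer cells of a type and less RNA per cell cannot be told apart.

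By their whole profile, 18 of the 24 libraries were nearest to the mean of their own group. A pair of libraries went against the 4OHT state in their labels. The library labelled growing replicate 4 was nearest to the mean profile of RIS+shHMGA1 cells, with a root mean square distance of 0.328 in log2 CPM against 1.32 to the remaining growing libraries, and its HMGA1 level was 667 CPM. The library labelled RIS replicate 2 was nearest to growing cells, at 0.390 against 1.08. The other 4 were nearest to the group of the same 4OHT state with the other vector by a small margin, with growing replicates 3 and 5 at 0.311 and 0.405 from shHMGA1 cells against 0.340 and 0.418 from growing cells, and RIS replicates 3 and 4 at 0.384 and 0.412 from RIS+shHMGA1 cells against 0.463 and 0.491 from RIS cells. Their own-group means held growing replicate 4 or RIS replicate 2, while the means of the hairpin groups held neither. The distances and the count of 18 were not taken again without those 2 libraries. The other 4 were kept throughout, with no result given without them. Growing replicate 4 and RIS replicate 2 were kept in their labelled groups. Many results that rest on them, but not all, are also given without them, from 22 libraries. Neither belongs to the comparison of RIS+shHMGA1 with shHMGA1.

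The DNA around the start of these genes was read first, because p53 binds a sequence made of paired half-sites. In the 2000 bases on either side of the transcript start (GRCh37 with the GENCODE annotation), 5 of the 9 genes held such a paired site with at most 2 mismatches, the C and G of each core kept and no spacer between the half-sites, against 2.82% of the windows of 12012 protein-coding genes. The pattern reads the same on both strands, and each site is written 5′ to 3′ along the gene, with the core of each half-site in capitals.
MDM2: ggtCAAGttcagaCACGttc
GDF15: catCTTGcccagaCTTGtct
BTG2: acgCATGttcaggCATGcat
FAS: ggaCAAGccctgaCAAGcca
ZMAT3: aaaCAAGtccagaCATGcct

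The ZMAT3 site had 0 mismatches, which only 0.0583% of the windows held, and lay in intron 1 at chr3:178787976-178787995 (minus strand). The MDM2 site lay in intron 1 at chr12:69202703-69202722 (plus strand), and the FAS site in intron 1 at chr10:90751066-90751085 (plus strand). The GDF15 site, at chr19:18496118-18496137 (plus strand), lay 840 bases upstream of the start of the transcript used. It lay within the annotated gene, chr19:18485541-18499986, which starts farther upstream than that transcript. The BTG2 site, at chr1:203272770-203272789 (plus strand), lay 1868 bases upstream of its transcript start. With at most 3 mismatches 6 of the 9 genes held a site, against 16% of the windows. The genes were chosen by name as members of the p53 pathway, so their share of sites is not an independent result. These matches describe letters and not binding, which was not measured here.

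Differences were tested with edgeR's quasi-likelihood test and Benjamini-Hochberg adjustment (FDR) over all genes, and a gene was counted as changed at an FDR under 0.01 with a log2 fold change beyond 0.58 in either direction, the thresholds of the study. Of the 9 genes, 2 changed between RIS+shHMGA1 and shHMGA1 cells, GDF15 upwards and TP53I3 downwards, against 39.1% of all genes. Without growing replicate 4 and RIS replicate 2 in the fit, the same 2 genes changed, against 44.4%. Between RIS+shHMGA1 and growing cells 3 changed, GDF15, SESN1 and TP53I3, against 45.9% of all genes, and 4 without those libraries, with FAS added, against 56.9%. In each of these comparisons a smaller share of the 9 genes than of all genes changed, a difference that rests on few genes and was not tested.

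In 4 contrasts 0 of the 9 genes changed with all libraries. Between RIS and growing cells 0 of all genes changed (0%), while 3 of the 9 had an unadjusted p under 0.05, against 33% of all genes. Without the 2 libraries that went against their labels, GDF15 and TP53I3 changed, against 39.7% of all genes. Between shHMGA1 and growing cells 0 of 9 changed, against 0.27% (2.59% without the 2 libraries), and 2 had an unadjusted p under 0.05, against 13.2%. Between RIS+shHMGA1 and RIS cells 0 of 9 changed, against 2.55% (12.5% without the 2 libraries), and 5 had an unadjusted p under 0.05, against 49.8%. In the interaction of hairpin and RAS 0 of 9 changed, against 0% (0.00745% without the 2 libraries), and 1 had an unadjusted p under 0.05, against 10.3%. DESeq2, run as an alternative, called GDF15 in RIS against growing and FAS in RIS+shHMGA1 against RIS, and 0 of 9 in the other 2.

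**Figure D1:**
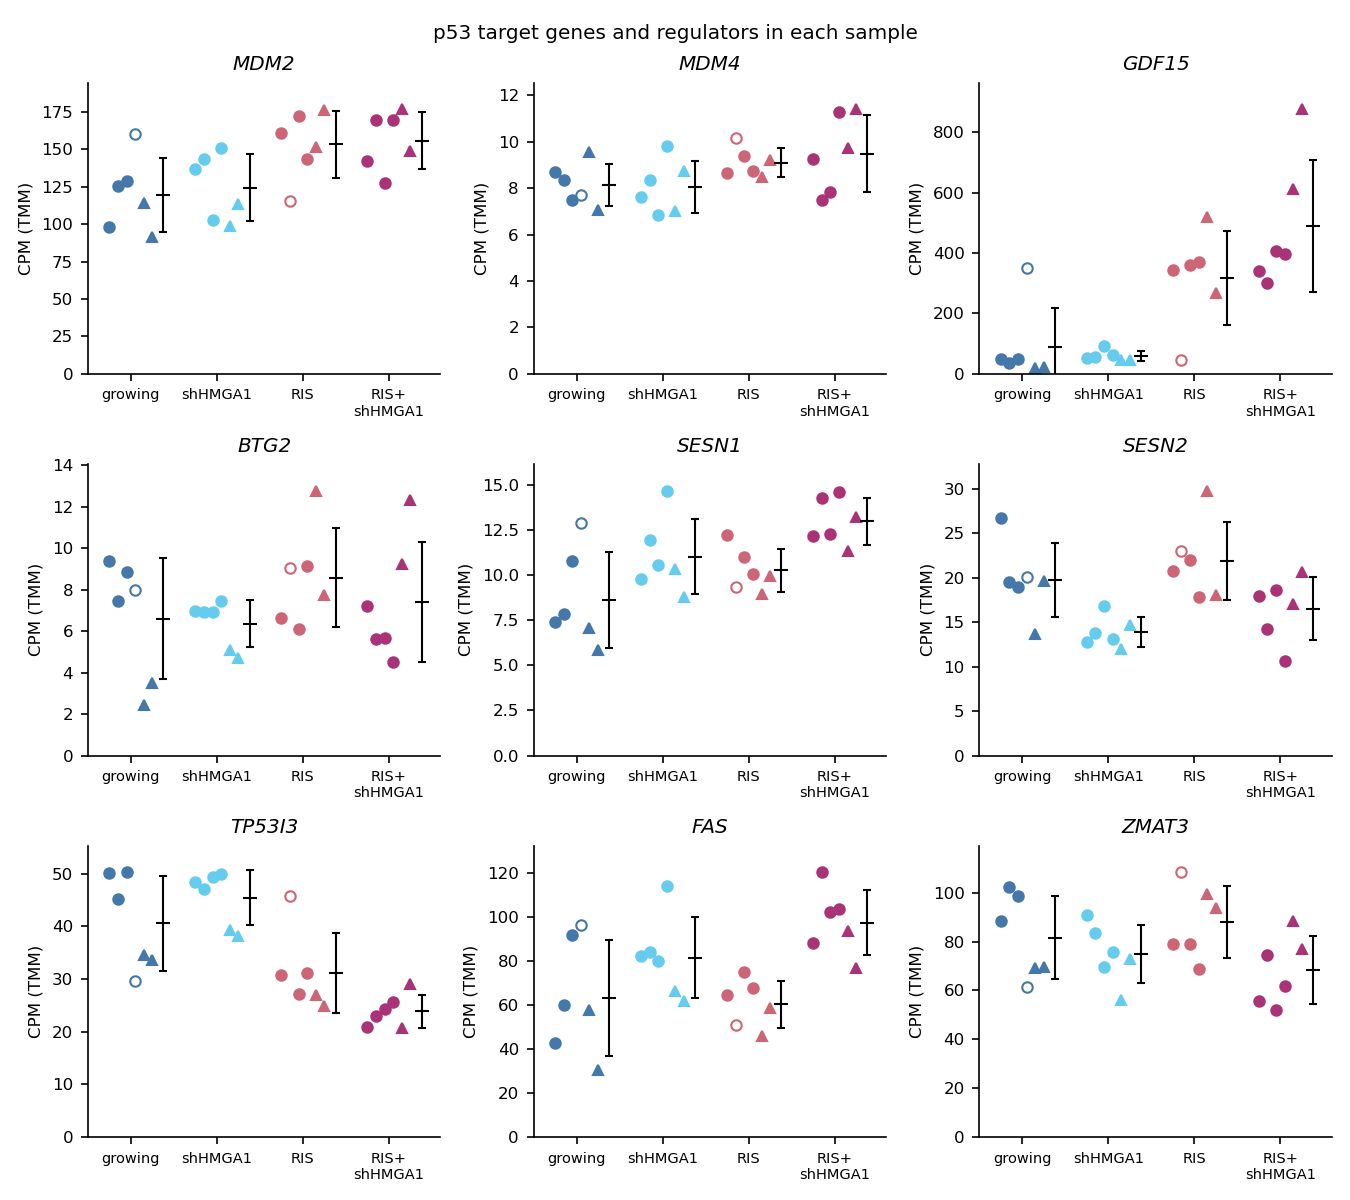
Level of each of the 9 genes (CPM on TMM library sizes, linear axis from 0) in each sample of the 4 groups. Circles are replicates 1 to 4, triangles replicates 5 and 6, open circles growing replicate 4 and RIS replicate 2, and bars the mean and SD of 6 samples, cut at 0. In GDF15 the open circles sit at 350.2 CPM among growing and 45.3 CPM among RIS samples.

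The gene with the widest range was GDF15, a secreted stress cytokine of the TGF-β superfamily (chr19:18485541-18499986, plus strand), at 19.9 to 877 CPM over the 24 samples. In growing cells the lowest, median and highest levels were 19.9, 41.8 and 350.2 CPM. In shHMGA1 cells they were 45.5, 54.5 and 91.3 CPM. In RIS cells they were 45.3, 352 and 518 CPM. In RIS+shHMGA1 cells they were 301, 402 and 877 CPM, so that every sample was above every shHMGA1 sample, a separation that 43.4% of all genes showed in either direction. GDF15 rose 8.29-fold in RIS+shHMGA1 against shHMGA1 (log2 fold change 3.05, SE 0.61, FDR = 0.00048). Against growing cells the log2 fold change was 2.48 (FDR = 0.0014) and 3.78 without growing replicate 4 and RIS replicate 2. Leaving out replicate number 1 or 6 in every group ended that call, with 2.45 (FDR = 0.01) and 2.03 (FDR = 0.013). Between RIS and growing cells it was 1.86 with FDR = 0.037, and 3.39 with FDR = 1.2e-09 without those libraries. Between RIS+shHMGA1 and RIS cells it was 0.62 (95% interval -0.55 to 1.79), so that no difference by the hairpin was detectable in senescent cells. Without those libraries it was 0.39 (95% interval -0.15 to 0.94). In numbers 5 and 6 it was 0.98 (FDR = 0.05), and in numbers 1 to 4 without those libraries -0.012 (FDR = 0.96). Between shHMGA1 and growing cells it was -0.57 with all libraries and 0.73 (FDR = 0.057) without those 2, a sign that turned with 1 growing library.

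The opposite direction was seen for TP53I3, an enzyme of the quinone oxidoreductase family named for its induction by p53 (chr2:24300303-24308731, minus strand). Its levels were 29.6, 39.8 and 50.2 CPM (lowest, median, highest) in growing cells and 38.2, 47.7 and 49.9 CPM in shHMGA1 cells. They were 24.8, 29.0 and 45.7 CPM in RIS cells and 20.8, 23.7 and 29.0 CPM in RIS+shHMGA1 cells. Every RIS+shHMGA1 sample was below every shHMGA1 sample and below every growing sample, the latter a separation that 6.42% of all genes showed. Without growing replicate 4, GDF15, SESN1 and TP53I3 were all separated between RIS+shHMGA1 and growing cells, as were 54.6% of all genes. TP53I3 fell by 0.92 on the log2 scale in RIS+shHMGA1 against shHMGA1 (SE 0.15, FDR = 0.00022), a drop to 0.528 of the level. Against growing cells it fell by 0.76 (FDR = 0.00039), but in replicate numbers 5 and 6 alone the log2 fold change was -0.41 (FDR = 0.1). Without growing replicate 4 and RIS replicate 2 it was -0.84 (FDR = 1.2e-06). Between RIS and growing cells the log2 fold change was -0.38 with FDR = 0.081, and -0.60 with FDR = 0.00024 without growing replicate 4 and RIS replicate 2. Between RIS+shHMGA1 and RIS it was -0.38 (FDR = 0.054), and -0.23 (FDR = 0.13) without the 2 libraries. TP53I3 had the lowest unadjusted p of the 9 genes for the interaction of hairpin and RAS, 0.019 with an adjusted p of 0.43. Without the 2 libraries these values of TP53I3 were 0.077 and 0.99. FAM228B overlaps TP53I3 on the other strand and lay between 1.13 and 4.31 CPM.

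**Figure D2:**
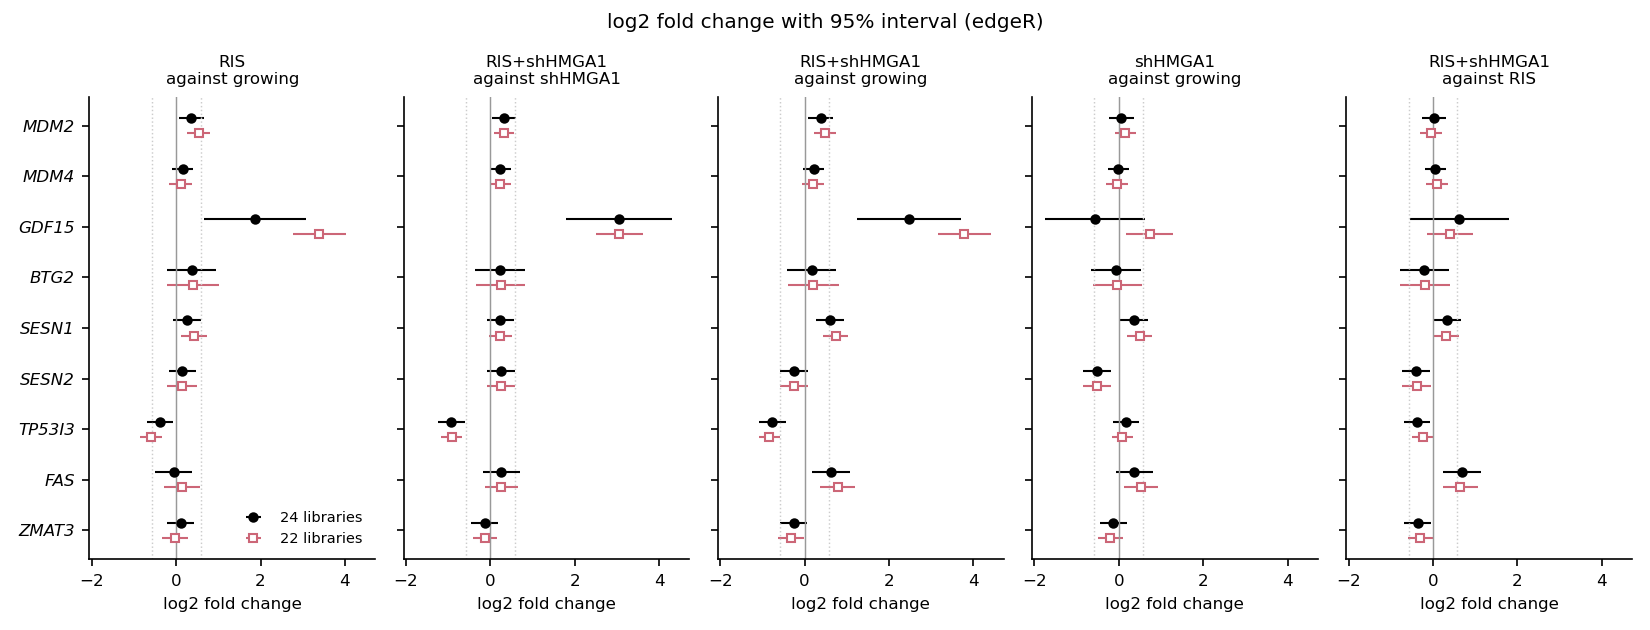
log2 fold change (x axis) with its 95% interval for the 9 genes in 5 comparisons, from 24 libraries (black circles) and from 22 libraries without growing replicate 4 and RIS replicate 2 (open squares), with dotted lines at the fold threshold of 0.58. GDF15 lies at 3.05 in RIS+shHMGA1 against shHMGA1 with both sets, while in RIS against growing it moves from 1.86 to 3.39.

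FAS is the death receptor at the cell surface that binds Fas ligand (chr10:90750414-90775542, plus strand). Its levels were 30.5, 58.8 and 96.2 CPM in growing cells, 61.9, 81.1 and 114 CPM in shHMGA1 cells, 46.1, 61.6 and 74.7 CPM in RIS cells and 76.8, 97.9 and 120 CPM in RIS+shHMGA1 cells. Every RIS+shHMGA1 sample was above every RIS sample, which held for 13.2% of all genes in either direction, yet the test missed the threshold (log2 fold change 0.69, SE 0.22, FDR = 0.023; 0.64 and FDR = 0.016 without the 2 libraries). Against growing cells FAS was 0.63 higher on the log2 scale (FDR = 0.013), and 0.79 (FDR = 0.0011) without the 2 libraries, where it passed. For the hairpin in growing cells the log2 fold change was 0.37 (FDR = 0.48), and 0.53 (FDR = 0.062) without them. For RIS against growing cells it was -0.06 (FDR = 0.86), and 0.14 (FDR = 0.57) without them. For RIS+shHMGA1 against shHMGA1 it was 0.26 (FDR = 0.29). ACTA2, smooth muscle actin, overlaps FAS on the other strand, and the strand setting of the counting is not given in the sources used here. ACTA2 lay between 24.5 and 57.3 CPM in RIS+shHMGA1, 33.8 and 501 CPM in RIS and 213 and 476 CPM in shHMGA1 cells, and its part in the FAS values was not tested.

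Sestrins are stress proteins that restrain the growth kinase mTORC1. SESN1 (chr6:109305512-109416049, minus strand) lay at 5.83, 7.60 and 12.9 CPM (lowest, median, highest) in growing cells, 8.80, 10.4 and 14.7 CPM in shHMGA1 cells, 8.97, 9.99 and 12.2 CPM in RIS cells and 11.3, 12.7 and 14.6 CPM in RIS+shHMGA1 cells. The highest growing sample was replicate 4. SESN1 rose 1.51-fold in RIS+shHMGA1 against growing cells (log2 fold change 0.60, SE 0.16, FDR = 0.0027), a value just beyond the fold threshold, and the log2 fold change was 0.74 without the 2 libraries. The call was lost without replicate number 1, 2 or 6, where the log2 fold change was 0.57, 0.54 and 0.50, with no filter on low counts (0.58, just inside the threshold) and with the samples of the contrast only (0.58, FDR = 0.015). It was also lost in numbers 1 to 4 only (0.455, FDR = 0.046). SESN2, which like GDF15 is also a known target of the stress factor ATF4 (chr1:28586029-28609002, plus strand), lay at 13.7, 19.5 and 26.7 CPM in growing, 12.0, 13.5 and 16.8 CPM in shHMGA1, 17.8, 21.4 and 29.8 CPM in RIS and 10.7, 17.5 and 20.6 CPM in RIS+shHMGA1 cells. SESN2 passed in no comparison. Its log2 fold change was -0.51 (FDR = 0.15) for the hairpin in growing cells, and -0.51 (FDR = 0.035) without the 2 libraries. For the hairpin in RIS cells it was -0.41 (FDR = 0.051), and -0.39 (FDR = 0.065) without them. SESN1 had positive values for the same contrasts, 0.36 (FDR = 0.33) and 0.34 (FDR = 0.092). Without the 2 libraries these were 0.50 (FDR = 0.024) and 0.31 (FDR = 0.085). The difference between the sestrins was not tested.

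Neither inhibitor of p53 passed in any of the comparisons with all libraries. MDM2, the ubiquitin ligase that marks p53 for degradation (chr12:69201957-69239324, plus strand), ranged 1.94-fold over the 24 samples. Its levels were 91.5, 120 and 160 CPM in growing, 99.1, 125 and 151 CPM in shHMGA1, 116, 156 and 176 CPM in RIS and 128, 159 and 177 CPM in RIS+shHMGA1 cells. The log2 fold change between RIS and growing cells was 0.36 (SE 0.14, FDR = 0.084). Without the 2 libraries it was 0.53 (FDR = 0.0011), below the fold threshold, and no RIS sample then overlapped a growing one, which held for 35.2% of all genes. The gene of carboxypeptidase M overlaps MDM2 on the other strand and lay at 6.86 CPM or lower. MDM4, the relative of MDM2 that masks the activation domain of p53 (chr1:204485507-204527248, plus strand), had the narrowest range of the 9, 6.85 to 11.4 CPM, and its smallest count in a sample was 60. Its largest log2 fold change among the 5 comparisons was 0.23 (95% interval -0.02 to 0.48), in RIS+shHMGA1 against shHMGA1.

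BTG2, an antiproliferative regulator of mRNA decay (chr1:203274619-203278730, plus strand), and ZMAT3, an RNA-binding zinc finger protein (chr3:178677909-178790003, minus strand), passed in no comparison with all libraries. The log2 fold changes of both differed by replicate number. BTG2 lay at 7.43 to 9.40 CPM in growing replicates 1 to 4 and at 2.44 and 3.48 CPM in growing replicates 5 and 6. In RIS+shHMGA1 it lay at 4.53 to 7.23 CPM in replicates 1 to 4 and at 9.23 and 12.3 CPM in replicates 5 and 6. The order of the groups was thus turned between the sets of numbers. Over all samples its log2 fold change between RIS+shHMGA1 and growing cells was 0.17 (FDR = 0.61). In numbers 5 and 6 alone it was 1.91 (FDR = 0.00029), and in numbers 1 to 4 without the 2 libraries it was -0.59 (FDR = 0.0029). For ZMAT3 the same values were 0.30 (FDR = 0.2) and -0.67 (FDR = 4.4e-05), and -0.26 (FDR = 0.14) over all samples. In growing cells ZMAT3 in replicates 5 and 6 (69.4 and 69.6 CPM) lay within replicates 1 to 4 (61.5 to 102 CPM). In RIS+shHMGA1 cells replicates 5 and 6 (88.4 and 77.0 CPM) lay above replicates 1 to 4 (52.2 to 74.7 CPM). These subsets were chosen after the values were seen, the difference between them was not tested, and the labels do not say what the numbers share.

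**Figure D3:**
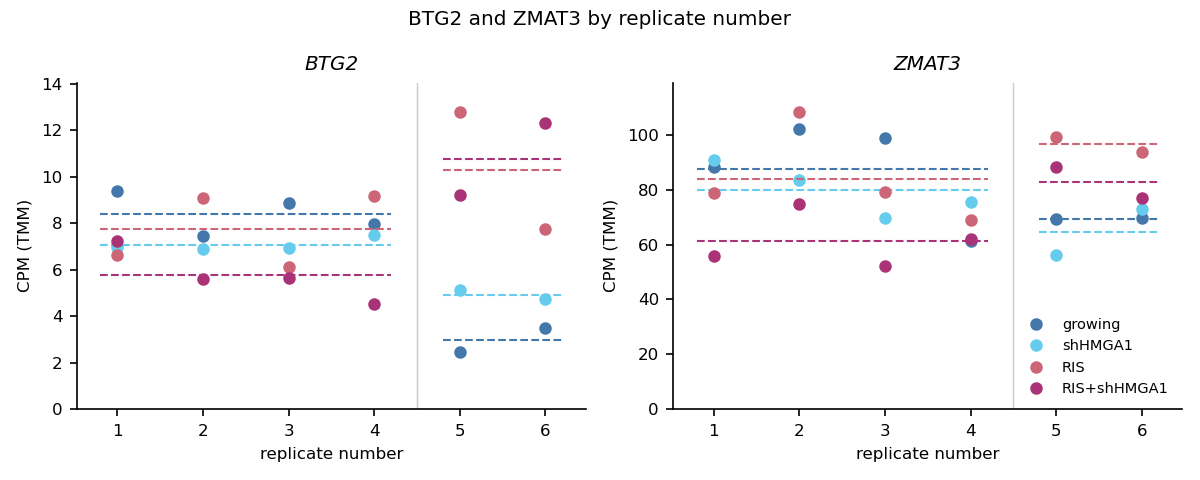
Level of BTG2 and ZMAT3 (CPM on TMM library sizes) by replicate number, coloured by group, with dashed lines at the mean of numbers 1 to 4 and of numbers 5 and 6. For BTG2 the growing mean is 8.42 CPM in numbers 1 to 4 and 2.96 CPM in numbers 5 and 6, and the RIS+shHMGA1 mean 5.75 and 10.8 CPM.

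The other genes of the pathway were taken from lists by role, of which 64 of 68 p53 targets were tested (SFN, TP53AIP1, GLS2 and NTN1 did not pass the filter). In RIS+shHMGA1 against shHMGA1, 14 rose and 13 fell (42.2%, against 39.1% of all genes), with a median log2 fold change of -0.10 against -0.02 over all genes. Against growing cells 12 rose and 12 fell (37.5%, against 45.9%), and without the 2 libraries 17 rose and 15 fell (50%, against 56.9%). For the hairpin in growing cells 0 changed, against 0.27% of all genes, and for RIS against growing cells 0 changed, against 0%. Without the 2 libraries 17 were higher and 11 lower in RIS, a share of 43.8% that lay near the 39.7% of all genes.

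CDKN1A, the inhibitor of cyclin-dependent kinases through which p53 arrests the cycle, lay at 499, 900 and 1095 CPM in shHMGA1 and at 1358, 1503 and 1743 CPM in RIS+shHMGA1 cells. The groups did not overlap, which held for 43.4% of all genes, and CDKN1A rose 1.86-fold (log2 fold change 0.90, SE 0.26, FDR = 0.006). CCNG1, a cyclin that acts back on p53, rose 1.75-fold (FDR = 0.0046). PPM1D, the phosphatase that switches the p53 response off, had a log2 fold change of -0.58 (FDR = 0.0041) that was just inside the fold threshold. Between RIS and growing cells the log2 fold change of CDKN1A was 0.59 (FDR = 0.12) with all libraries and 0.92 (FDR = 0.0016) without the 2.

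By role, cell cycle and feedback genes had 6 higher and 3 lower of 18 in RIS+shHMGA1 against shHMGA1 (50%, against 39.1% of all genes). RRAD, a small GTPase, rose by a log2 fold change of 1.63, and KLF4, a zinc finger transcription factor, fell by 2.67. Of 8 DNA repair genes 2 rose and 4 fell (75%), FANCC of the Fanconi anaemia core complex by the most, at -1.77. Of 15 cell death genes 2 rose and 0 fell (13.3%), and of 13 genes of metabolism and the lysosome 2 rose and 2 fell (30.8%). Of 10 secreted and surface genes 6 changed (60%). In this list 2 rose, the cytokines LIF (2.56) and KITLG (1.91), and 4 fell, the guidance factor SEMA3B by the most (-2.62). Against growing cells the largest rises were those of LIF (2.16), KITLG (1.82) and RPS27L (1.58), and the genes that fell included SEMA3B (-2.93) and KLF4 (-2.03). In RIS+shHMGA1 against RIS 1 of the 64 changed, TNFAIP8, an apoptosis regulator (log2 fold change 0.68, FDR = 0.008), against 2.55% of all genes, and 0.65 without the 2 libraries. Without them 8 of the 64 changed, 12.5%, the same share as of all genes. The count of 1 was 0 with no filter on low counts, with the samples of the contrast only and without replicate number 1, 2, 3, 5 or 6.

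**Figure D4:**
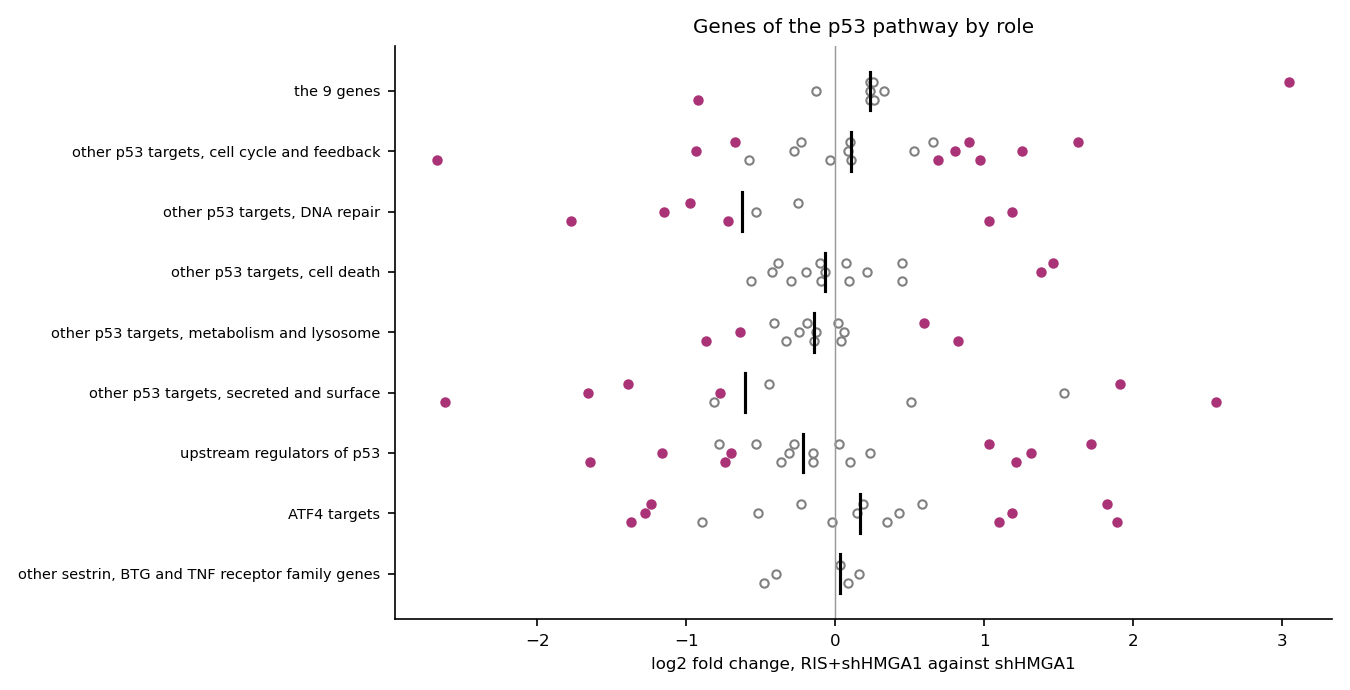
log2 fold change in RIS+shHMGA1 against shHMGA1 (x axis) of the 9 genes and of each list by role, with filled points past both thresholds, open points not, and black bars at the median of the list. The 9 genes have a median of 0.24 and the DNA repair list one of -0.63.

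Of 18 regulators upstream of p53, 4 rose and 4 fell in RIS+shHMGA1 against shHMGA1 (44.4%, near the 39.1% of all genes). CDKN2A, which encodes ARF, the inhibitor of MDM2, as well as p16, rose by a log2 fold change of 1.72, and RPL5, a ribosomal protein that binds MDM2, by 1.32. CHEK1, a checkpoint kinase, fell by 1.65 and AURKA, a mitotic kinase, by 1.16. The counts are per gene and cannot separate ARF from p16. Of 16 ATF4 targets, 4 rose and 3 fell (43.8%, near the same 39.1%), with DDIT3 (1.90) and DDIT4 (1.83) the largest rises and STC2 (-1.37) and PHGDH (-1.28) the largest falls. In RIS+shHMGA1 against RIS 0 genes of either list changed, and without the 2 libraries 2 of the upstream regulators and 1 of the ATF4 targets were higher (11.1% and 6.25%, against 12.5% of all genes). Among 5 tested relatives of the sestrins, BTG2 and FAS, 0 changed in RIS+shHMGA1 against shHMGA1 (0%, against 39.1%), and BTG3 rose in RIS+shHMGA1 against RIS (0.85, FDR = 0.0099; 0.80 without the 2 libraries).

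The 9 genes did not share 1 pattern, with GDF15 higher and TP53I3 lower in RIS+shHMGA1 than in shHMGA1 cells. Over the 24 samples, the root mean square difference of centred log2 CPM was lowest between SESN1 and FAS (0.238) and between MDM2 and SESN1 (0.248), and highest between GDF15 and TP53I3 (2.02). The most alike of all tested genes were FOXQ1 for GDF15 (0.480), TUBB2A for TP53I3 (0.144), C17orf75 for FAS (0.139), CYB5B for SESN1 (0.133), SLC39A9 for MDM2 (0.135) and SCARB1 for BTG2 (0.293). The levels were centred but not scaled, so these differences also hold how far each gene varied. The root mean square of a gene's own centred values was 0.194 for MDM4 and 1.67 for GDF15. The differences describe likeness over samples that share groups, and no test was made of them.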

How the data were processed

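RNA-seq libraries (TruSeq Stranded mRNA) of 24 samples were analysed. The authors mapped reads to hg19 with STAR 2.5.0b, trimmed adapters with cutadapt 1.10.0, removed reads of low mapping quality and deposited raw counts per Entrez gene, made with Rsubread. Its version, annotation and strand setting are not given in the sources used here. Symbols were matched for 23696 of 25702 identifiers. Groups came from the labels. edgeR 4.0.16 (R 4.3.3, limma 3.58.1) was run with filterByExpr, TMM and a quasi-likelihood fit of group means over all 24 samples. Log2 CPM had a prior count of 2. Alternatives were RLE normalisation, no filter, DESeq2 1.42.0, voom with quality weights, an FDR of 0.05, the replicate block, the samples of each contrast alone, subsets of samples and leaving out each replicate number. No pair of samples of the same group agreed within sampling noise, and pairs across groups were not checked. The scripts were tested on simulated data. The smallest count behind a value of the 9 genes was 28, of BTG2, so that counting error adds most to the spread between replicates for the lowest genes. The 9 genes and the lists were chosen with earlier results of these data known. Genes named beyond the 9 were CDKN1A, CCNG1, PPM1D, those with the largest changes past the thresholds in each list, and the most alike genes. A gene that this rule names is not reported here. Sites were searched in GRCh37, the build that hg19 names.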

Additional observations from a re-analysis of the deposited data

Results flagged for a closer look

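The level of GDF15 in growing replicate 4 stood apart from its group. Its gap to the nearest sample was 0.909 of the whole range, above Dixon's 95% critical value for 6 samples. The level of TP53I3 in RIS replicate 2 stood apart in the same way, at 0.701. These were 2 of 36 groups of samples tested, where chance gives about 1.8. They are the libraries whose whole profile went against their labels.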

How the results depend on the processing

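The number of the 9 genes that changed was, in RIS against growing, 0 with all libraries and 1 with DESeq2, voom with quality weights or an FDR of 0.05. It was 2 in numbers 5 and 6 only and 2 in numbers 1 to 4 without growing replicate 4 and RIS replicate 2, and leaving out libraries gave 0 to 2. It was 3 in RIS+shHMGA1 against growing, but 2 with no filter or the samples of the contrast only, 0 in numbers 1 to 4 only, 5 in numbers 5 and 6, 6 in numbers 1 to 4 without the 2 libraries, and 1 to 4 when libraries were left out. Of all genes, 6137 changed there with all libraries, and 5, 4705 and 8147 in these subsets by number. It was 0 in RIS+shHMGA1 against RIS, and 1 (FAS) with DESeq2 and an FDR of 0.05. For RIS+shHMGA1 against shHMGA1 it was 2 in every setting except numbers 1 to 4 only, where it was 0, as it was over all genes (0, from 5220 with all samples). Neither library that went against its label is in that comparison, but all groups share the estimate of the spread. In numbers 1 to 4 only, GDF15 had a log2 fold change of 2.43 (FDR = 0.018) and TP53I3 of -1.08 (FDR = 0.014). In numbers 1 to 4 without growing replicate 4 and RIS replicate 2, both changed, and 6427 of all genes did. GDF15 was then again at 2.43 (FDR = 6.2e-11) and TP53I3 at -1.08 (FDR = 5e-09). Numbers 5 and 6 gave BTG2 (1.20) in place of TP53I3 (-0.57, FDR = 0.038). The cause was not tested.

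The labels do not say that a replicate number marks a shared culture or day, so the samples were not treated as paired. Deviations of same-numbered samples correlated at 0.175 on average (-0.594 to 0.828), those of other numbers at -0.050, 24 of 36 same-numbered pairs were over 0.1, and 10 of 24 libraries correlated best with their own number, a hint from the data and not from the design. With the number as a replicate block, FAS passed in RIS+shHMGA1 against RIS (log2 fold change 0.69, FDR = 0.0061), which makes 1 of 9 genes, and in RIS+shHMGA1 against growing. FAS in RIS against growing turned to 0.010 under the block. No other call on the 9 genes changed.

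The other signs that turned were mostly those of small log2 fold changes. Exceptions include GDF15 in both contrasts of the hairpin, at -0.57 and 0.62 with all libraries, and BTG2 in RIS+shHMGA1 against growing, which passed as lower (-0.59, FDR = 0.0029) in numbers 1 to 4 without the 2 libraries. In RIS against growing, BTG2 turned to -0.12 in numbers 1 to 4 and -0.24 in these without the 2 libraries, SESN2 to -0.021 and -0.11, and ZMAT3 to -0.059 and -0.34, with -0.23 by voom. FAS turned to 0.21 by voom, 0.24 in numbers 5 and 6 and 0.10 in numbers 1 to 4 without the 2 libraries. Leaving out libraries gave -0.045 to 0.28 for SESN2, -0.20 to 0.14 for FAS and -0.028 to 0.20 for ZMAT3. In shHMGA1 against growing, MDM4 turned to 0.029 in numbers 1 to 4 and 0.00022 in these without the 2 libraries. GDF15 turned to 0.67 by voom, 1.05 in numbers 5 and 6 and 0.57 in numbers 1 to 4 without the 2 libraries, and BTG2 to 0.71 in numbers 5 and 6. Leaving out libraries gave -0.0099 to 0.16 for MDM2, -0.12 to 0.071 for MDM4, -0.86 to 0.73 for GDF15 and -0.18 to 0.056 for BTG2. In RIS+shHMGA1 against growing, BTG2 turned to -0.076 by voom, -0.56 in numbers 1 to 4 and -0.59 in these without the 2 libraries, with -0.17 to 0.35 when libraries were left out. SESN2 turned to 0.23 and ZMAT3 to 0.30 in numbers 5 and 6. For RIS+shHMGA1 against RIS, MDM2 turned to -0.052 by voom, -0.010 in the samples of the contrast only and -0.087 in numbers 1 to 4 without the 2 libraries, with -0.073 to 0.11 when libraries were left out. MDM4 turned to -0.070 and -0.041 in numbers 1 to 4 with and without the 2 libraries, and GDF15 to -0.012 in numbers 1 to 4 without them. In numbers 5 and 6 BTG2 turned to 0.13 and TP53I3 to 0.00030. In RIS+shHMGA1 against shHMGA1, BTG2 turned to -0.042 by voom, -0.32 in numbers 1 to 4 and -0.32 in these without the 2 libraries, with -0.045 to 0.44 when libraries were left out, and ZMAT3 to 0.43 in numbers 5 and 6.

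Counts over all genes also moved. In RIS against growing 0 genes changed with all libraries, 829 with DESeq2, 6317 with voom and 5331 without the 2 libraries. The counts in RIS+shHMGA1 against RIS were 341, 1573, 1856 and 1677, and 1637 under the replicate block. In shHMGA1 against growing they were 36, 99, 845 and 348. RLE in place of TMM moved the median log2 fold change of all genes by at most 0.030.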
